A study of Mus musculus with 24 samples.

Results

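The insulin-like growth factor (IGF) system was measured as 10 genes in whole-lung and whole-retina RNA-seq of newborn mice. These were the ligands Igf1 and Igf2, the receptors Igf1r and Igf2r, and the binding protein genes Igfbp2, Igfbp3, Igfbp4, Igfbp5, Igfbp6 and Igfbp7. The members were chosen by name, as the rows of each table whose Ensembl identifier mapped to one of these symbols, which gave 10 of 36109 genes in the lung table and 10 of 36595 in the retina table. All 10 passed the low-count filter in both tissues, where 16819 lung genes and 19173 retina genes were tested.

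The study compared global GSDMD knockout mice (GSDMD-KO), which lack the pore-forming protein gasdermin D that carries out inflammasome-driven pyroptosis, with their wildtype (WT) littermates under room air (RA) or hyperoxia (O2). The knockout mice, on a C57/B6 background, were homozygous for a small CRISPR/Cas9-derived deletion in the Gsdmd gene and carried it in every cell. For the lung, pups breathed 85% oxygen (WT-O2, KO-O2) or 21% oxygen (WT-RA, KO-RA) from postnatal day 1 (P1) to P14, and lungs were collected on P15. For the retina, the O2 groups (WT-O2, KO-O2) were held at 75% oxygen between P7 and P12, followed by recovery in room air, the RA groups (WT-RA, KO-RA) stayed at 21% oxygen from P1 to P17, and retinas were collected on P18, so the O2 retinas were taken during recovery and not under oxygen. Each group held 3 mice, giving 12 lung and 12 retina libraries. The labels do not say which mice shared a litter, so the p-values measure only the spread between these mice. The lung and retina tables were made separately, and all tests were run within a tissue.

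IGF-1 and IGF-2 are secreted growth factors that signal through the tyrosine kinase receptor IGF1R to the PI3K-AKT and MAPK pathways. The mannose-6-phosphate receptor IGF2R binds IGF-2 at the cell surface and carries it to lysosomes for degradation, and Igf2 and Igf2r are both imprinted genes with opposite parental expression. The IGF binding proteins hold the ligands in the circulation and in the matrix, lengthen their half-life and either restrain or present them to the receptor. In the newborn lung the system takes part in alveolar growth, and in the retina IGF-1 is known as a factor that permits normal vessel growth and whose shortage accompanies retinopathy of prematurity.

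The library totals were 28763661 to 29604254 counts in the lung and 24863257 to 29093035 in the retina. The 10 IGF genes took 0.220% to 0.352% of the lung counts and 0.0236% to 0.0634% of the retina counts. Gsdmd itself was at 40.4 to 43.2 CPM in WT-RA and 32.1 to 36.2 CPM in WT-O2 lungs, against 23.2 to 25.2 CPM in KO-RA and 11.4 to 16.7 CPM in KO-O2 lungs (CPM, a gene's counts scaled to a common library size). In the retina Gsdmd was at 0.392 to 5.95 CPM in WT and 0.582 to 3.07 CPM in KO mice, so the genotypes overlapped there and the low level did not check the labels. Lung epithelial markers summed to at least 20175 CPM in every lung and retinal markers to at least 49518 CPM in every retina.

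Some libraries stood apart. Lens transcripts (10 lens genes) summed to 12521 CPM in WT-RA retina 2, 38694 CPM in WT-RA retina 3 and 16881 CPM in KO-RA retina 3, against 9.25 to 250 CPM in the other 9 retinas. KO-RA retina 3 also held 2152 CPM of 10 retinal pigment epithelium genes, against 107 to 542 CPM in the other 11. Hepatocyte transcripts summed to 162 CPM in KO-O2 lung 1, against 1.69 to 6.65 CPM in the other lungs. WT-RA lung 3 lay away from the other 2 WT-RA lungs in several IGF genes, as given below. Y-linked transcripts marked as male 0 of the 3 WT-RA lungs, 1 WT-O2 lung, 2 KO-RA lungs and all 3 KO-O2 lungs, and in the retina 3 WT-RA mice, 1 WT-O2 mouse, 3 KO-RA mice and 1 KO-O2 mouse, so sex was not balanced over the groups of either tissue. In bulk tissue, fewer cells of a type and less RNA per cell cannot be told apart.

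The promoters of the 4 members that met the full call below are shown for orientation, since these genes moved with oxygen in at least 1 tissue. Each window is 300 bases of RefSeq GRCm38.p6 sequence, from 250 bases before to 50 after an annotated start, 5′ to 3′ on the gene's own strand, with CG dinucleotides in capitals. The lines hold Igf1 at chr10:87860861-87861160 (plus strand), Igf2r at chr17:12769657-12769956 (minus), Igfbp3 at chr11:7213874-7214173 (minus) and Igfbp7 at chr5:77407996-77408295 (minus).
Igf1: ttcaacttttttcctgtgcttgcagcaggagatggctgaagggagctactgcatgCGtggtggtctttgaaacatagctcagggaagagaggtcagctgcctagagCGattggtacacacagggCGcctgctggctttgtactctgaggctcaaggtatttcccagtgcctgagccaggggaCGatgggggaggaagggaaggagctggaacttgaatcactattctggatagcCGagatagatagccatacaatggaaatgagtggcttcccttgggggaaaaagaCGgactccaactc
Igf2r: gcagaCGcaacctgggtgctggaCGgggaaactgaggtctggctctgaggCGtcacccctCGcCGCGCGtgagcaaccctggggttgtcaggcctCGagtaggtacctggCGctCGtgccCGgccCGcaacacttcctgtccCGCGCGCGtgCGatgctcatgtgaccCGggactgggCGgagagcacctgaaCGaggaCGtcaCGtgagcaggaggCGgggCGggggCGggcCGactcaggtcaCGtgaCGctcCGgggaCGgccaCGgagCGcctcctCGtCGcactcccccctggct
Igfbp3: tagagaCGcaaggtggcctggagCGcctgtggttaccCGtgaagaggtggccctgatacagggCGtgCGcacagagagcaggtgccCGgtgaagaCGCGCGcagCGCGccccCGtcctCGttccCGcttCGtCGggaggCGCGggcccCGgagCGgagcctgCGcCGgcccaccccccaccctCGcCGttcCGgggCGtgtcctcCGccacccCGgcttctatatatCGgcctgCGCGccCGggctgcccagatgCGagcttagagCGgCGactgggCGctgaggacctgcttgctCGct
Igfbp7: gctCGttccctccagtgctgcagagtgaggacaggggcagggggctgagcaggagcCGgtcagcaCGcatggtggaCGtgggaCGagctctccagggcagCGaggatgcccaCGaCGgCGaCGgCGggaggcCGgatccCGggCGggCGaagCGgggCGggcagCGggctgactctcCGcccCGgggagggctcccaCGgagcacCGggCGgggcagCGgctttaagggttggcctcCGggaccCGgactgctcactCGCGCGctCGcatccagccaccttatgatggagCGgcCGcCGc
The Igf1 window held 6 CG dinucleotides, below the median of 7 over all 32851 windows of the table, while the Igf2r, Igfbp3 and Igfbp7 windows held 34, 37 and 33. A search of both strands found CACGTG (the E-box) 2 times in the Igf2r window. The 4 matches there of the shorter ACGTG (a form of the core of hypoxia response elements) are these same letters read on either strand. ACGTG was found 1 time in the Igfbp7 window. GGGCGG was found 3 times in the Igf2r and 4 times in the Igfbp7 window. Of all windows, 7.2% held CACGTG, 19.6% ACGTG and 35.7% GGGCGG. None of the 3 motifs was in the Igf1 or Igfbp3 window. Other forms of the hypoxia response core, such as GCGTG, were not searched for, so these windows cannot be said to lack it. Counts were made per gene, so which start each transcript used was not measured.

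Levels were compared between genes per kilobase of exon. In WT-RA lungs Igfbp7 was the highest member at 789 ± 24.2 CPM per kb (mean ± SD, n = 3), followed by Igfbp2 at 147 ± 39.5 CPM per kb. Igfbp4 at 79.7 ± 26.8 and Igfbp5 at 79.6 ± 13.2 CPM per kb did not differ beyond their spread. Igfbp6 (34.7 ± 16.1 CPM per kb), Igfbp3 (16.4 ± 5.24 CPM per kb) and Igf2r (12.0 ± 0.438 CPM per kb) came next, each overlapping its neighbour. Igf1r (5.34 ± 0.125 CPM per kb), Igf1 (5.10 ± 1.85 CPM per kb) and Igf2 (4.33 ± 0.571 CPM per kb) were the lowest. The wide spread of Igf1 took in the means of Igf1r and Igf2, which differed from each other beyond their spread.

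In WT-RA retinas Igfbp7 (106 ± 54.7 CPM per kb) and Igfbp2 (20.4 ± 3.11 CPM per kb) again led. Igf2 (7.54 ± 2.02 CPM per kb) and Igfbp4 (7.05 ± 1.15 CPM per kb) did not differ beyond their spread, nor did Igfbp3 (4.24 ± 2.08 CPM per kb) and Igfbp5 (4.06 ± 1.34 CPM per kb). Igfbp6 (2.46 ± 0.773), Igf1r (1.47 ± 0.345), Igf1 (1.22 ± 0.0764) and Igf2r (0.724 ± 0.141 CPM per kb) closed the order. Igf1 thus had a lower mean per kilobase than every binding protein gene in both tissues under room air.

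In the lung, hyperoxia raised Igf1 and Igf2r and lowered Igfbp3 in both genotypes, each by at least 2-fold. Igf2 and Igfbp7 rose and Igfbp2 fell by less than that, also in both genotypes. Igf1r, Igfbp4, Igfbp5 and Igfbp6 did not pass the test. A gene was called when edgeR's quasi-likelihood test gave a Benjamini-Hochberg adjusted p under 0.1 over all tested genes, the unadjusted p was below 0.05 and the level differed 2-fold or more, and was said to pass when the adjusted p alone was under 0.1. In WT lungs 3 of 10 members were called (2 higher, 1 lower), where 11.6% of all tested genes were (5.04% higher, 6.57% lower), and 6 of 10 passed (4 higher, 2 lower), where 49.2% of all tested genes did (24.5% higher, 24.7% lower). The RA and O2 mice did not overlap for 6 of 10 members, where 49.8% of all genes did not. The counts were the same in GSDMD-KO lungs, where 10.6% of all genes were called (4.57% higher, 6.03% lower) and 46.7% passed (23.3% higher, 23.4% lower). There 7 of 10 members did not overlap, against 52.4% of all genes. The share of members that passed lay near the background in both genotypes. The share called lay above it, on 3 members. As the members were chosen with earlier results of these data known, this share is not independent of them. The median log2 fold change of the members was 0.08 in WT and 0.10 in GSDMD-KO, against -0.01 over all tested genes in each.

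**Figure D1:**
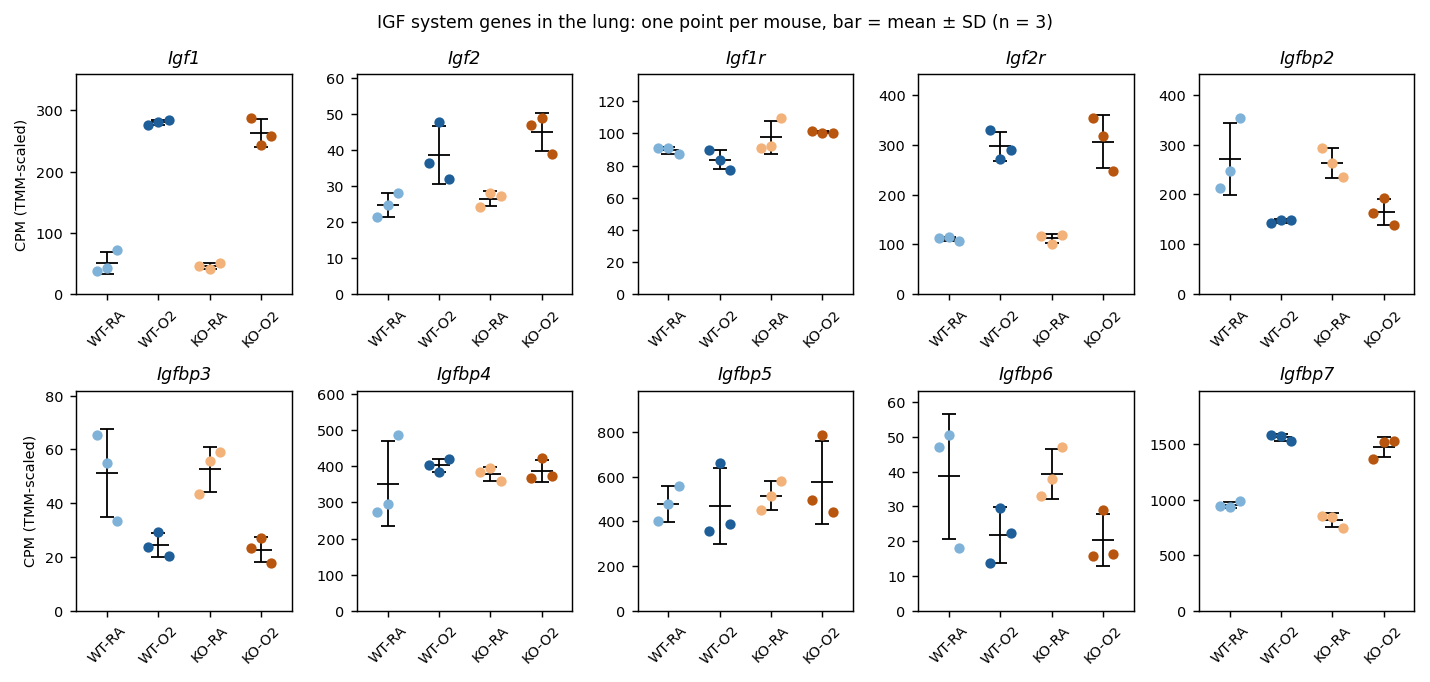
CPM (scaled by the TMM method) of the 10 IGF system genes in each of the 12 lungs, with the mean and SD of each group of 3 mice. Igf1 lies between 243 and 287 CPM in the 6 O2 lungs and between 37.9 and 71.5 CPM in the 6 RA lungs, while Igf1r, Igfbp4 and Igfbp5 overlap between RA and O2.

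Igf1 encodes the main postnatal ligand. Igf1 was at 37.9, 42.1 and 71.5 CPM in WT-RA mice 1, 2 and 3, and at 276, 280 and 284 CPM in WT-O2 mice. It was at 46.1, 41.3 and 51.1 CPM in KO-RA and at 287, 243 and 257 CPM in KO-O2 mice. All 6 O2 lungs lay above all 6 RA lungs, and WT-RA mouse 3 was the highest of the RA lungs. The log2 fold change was 2.47 ± 0.195 (SE), or 5.55-fold, in WT (adjusted p = 1.3e-06) and 2.51 ± 0.196, or 5.69-fold, in GSDMD-KO (adjusted p = 1.4e-06). Without WT-RA mouse 3 the WT value was 2.81.

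Igf2, the ligand of fetal growth, rose less. It was at 21.5, 24.8 and 28.1 CPM in WT-RA and at 36.4, 47.7 and 31.8 CPM in WT-O2 mice. It was at 24.1, 27.9 and 27.3 CPM in KO-RA and at 47.0, 48.9 and 38.9 CPM in KO-O2 mice. The groups did not overlap, and the log2 fold change was 0.64 ± 0.144 in WT (adjusted p = 0.0027) and 0.76 ± 0.143 in GSDMD-KO (adjusted p = 0.0008). A readthrough gene that overlaps Igf2 (Gm49394) held 0 to 32.7 estimated counts per lung, so little could have been split between them.

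Igf2r, the clearance receptor of IGF-2, was at 112, 115 and 107 CPM in WT-RA and at 330, 272 and 290 CPM in WT-O2 mice. It was at 116, 102 and 118 CPM in KO-RA and at 355, 318 and 249 CPM in KO-O2 mice. Every O2 lung was thus above 2 times the highest RA lung. The log2 fold change was 1.42 ± 0.119 (2.67-fold, adjusted p = 4.6e-07) in WT and 1.45 ± 0.119 (2.74-fold, adjusted p = 4.5e-07) in GSDMD-KO. Airn, a transcript antisense to Igf2r, was not used here, and the strand setting of the libraries is not given in the sources used here, so reads from that strand cannot be told apart.

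Igf1r, the signalling receptor, was level over the groups. It was at 90.7, 90.9 and 87.2 CPM in WT-RA, 89.9, 83.8 and 77.6 CPM in WT-O2, 91.0, 92.5 and 110 CPM in KO-RA and 102, 101 and 100 CPM in KO-O2 mice. The log2 difference between O2 and RA was -0.10 in WT (95% interval -0.29 to 0.09, adjusted p = 0.37) and 0.04 in GSDMD-KO (-0.14 to 0.23, adjusted p = 0.70), intervals that do not reach the change seen in Igf1 or Igf2r.

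Among the binding proteins, Igfbp3 and Igfbp2 fell. Igfbp3, the main carrier of circulating IGF, was at 65.5, 55.1 and 33.4 CPM in WT-RA and 23.6, 29.3 and 20.5 CPM in WT-O2 mice. It was at 43.3, 55.6 and 59.0 CPM in KO-RA and 23.4, 26.9 and 17.7 CPM in KO-O2 mice. No O2 lung reached the lowest RA lung, which was WT-RA mouse 3. Igfbp3 fell by 1.07 ± 0.245 on the log2 scale in WT (2.10-fold, adjusted p = 0.0050) and by 1.21 ± 0.246 in GSDMD-KO (2.32-fold, adjusted p = 0.0026). Without WT-RA mouse 1 or WT-O2 mouse 3 the WT difference was less than 2-fold (log2 values of -0.85 and -0.95). Igfbp2, a binding protein abundant in fetal and newborn tissue, was at 214, 246 and 353 CPM in WT-RA and 143, 148 and 149 CPM in WT-O2 mice, and at 293, 262 and 234 CPM in KO-RA and 162, 193 and 139 CPM in KO-O2 mice. It fell by 0.89 ± 0.165 in WT (adjusted p = 0.00087) and by 0.67 ± 0.164 in GSDMD-KO (adjusted p = 0.0056).

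Globins and other red cell transcripts moved with these values in WT lungs. The 7 erythroid genes summed to 15689 to 18067 CPM in WT-RA and 2913 to 4127 CPM in WT-O2, but to 12980 to 27267 CPM in KO-RA and 6092 to 28556 CPM in KO-O2 mice. With this list as a covariate the log2 fold change in WT was -0.34 for Igfbp2 (adjusted p = 0.427) and -0.74 for Igfbp3 (adjusted p = 0.353). Igf1 (2.59, adjusted p = 0.0019), Igf2r (1.84, 6.6e-05), Igf2 (0.98, 0.024) and Igfbp7 (0.69, 0.013) still passed in WT with it. In WT lungs the oxygen groups do not overlap in this list, so the list and oxygen cannot be told apart there. The cause of the weaker Igfbp2 and Igfbp3 values was not tested. In GSDMD-KO lungs, with the same covariate, Igfbp2 was at -0.58 (adjusted p = 0.0082) and Igfbp3 at -1.17 (adjusted p = 0.0061).

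Igfbp7, a low-affinity IGF binder deposited in vessel walls, rose. It was at 944, 932 and 987 CPM in WT-RA and 1588, 1574 and 1527 CPM in WT-O2 mice. It was at 855, 847 and 743 CPM in KO-RA and 1372, 1523 and 1535 CPM in KO-O2 mice. The 6 O2 lungs lay above the 6 RA lungs, with a log2 fold change of 0.71 ± 0.0845 in WT (adjusted p = 1.3e-05) and 0.86 ± 0.0847 in GSDMD-KO (adjusted p = 2.7e-06). The 8 endothelial markers moved the other way. They summed to 4042 to 4388 CPM in WT-RA and 3137 to 3476 CPM in WT-O2 lungs. In KO-RA lungs they summed to 3777 to 3866 CPM and in KO-O2 lungs to 2938 to 3401 CPM. Igfbp3 fell with this sum. Over the 12 lungs, which share the oxygen groups, Pearson's r of log2 values with it was 0.848 for Igfbp3 and -0.793 for Igfbp7. Once the group means were removed, r was 0.453 and -0.233. The part of endothelial cells in either lung value was not tested.

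Igfbp6, which prefers IGF-2, was at 47.1, 50.6 and 18.1 CPM in WT-RA and 13.6, 29.6 and 22.4 CPM in WT-O2 mice, and at 32.9, 37.9 and 47.2 CPM in KO-RA and 15.8, 29.0 and 16.4 CPM in KO-O2 mice. WT-RA mouse 3 lay among the O2 lungs. The log2 difference was -0.82 ± 0.432 in WT (adjusted p = 0.16) and -0.95 ± 0.434 in GSDMD-KO (adjusted p = 0.12). Without WT-RA mouse 3 Igfbp6 passed in WT at -1.16 (adjusted p = 0.0302) and in GSDMD-KO at -0.95 (adjusted p = 0.0461). Igfbp4, which holds IGF back from its receptor until cleaved, was at 272, 295 and 488 CPM in WT-RA and 384 to 421 CPM in WT-O2 mice, and at 358 to 394 CPM in KO-RA and 368 to 423 CPM in KO-O2 mice. Its log2 difference was 0.20 ± 0.168 in WT (adjusted p = 0.38) and 0.04 ± 0.168 in GSDMD-KO (adjusted p = 0.88). Without WT-RA mouse 3 it was 0.51 in WT (adjusted p = 0.000363).

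Igfbp5, a matrix-bound binding protein, ranged from 400 to 558 CPM in WT-RA, 356 to 663 CPM in WT-O2, 451 to 582 CPM in KO-RA and 441 to 789 CPM in KO-O2 mice. The log2 difference was -0.03 (95% interval -0.65 to 0.59) in WT and 0.16 (-0.46 to 0.78) in GSDMD-KO, with adjusted p = 0.95 and 0.68. WT-O2 mouse 2 (663 CPM) and KO-O2 mouse 2 (789 CPM) were the highest lungs of all, so the spread within the O2 groups was wider than any difference between RA and O2.

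Whether GSDMD loss altered the system was asked in 3 further contrasts in each tissue. No member passed edgeR's test between KO-O2 and WT-O2 lungs, between KO-RA and WT-RA lungs, or for the interaction of genotype and oxygen, and DESeq2 called none. Over all tested lung genes edgeR passed 0.0416%, 0.488% and 0.00595% in these contrasts and called 0.0238% and 0.137% in the first 2. With unadjusted p-values below 0.05 there was 1 member in O2 (Igf1r, log2 difference 0.27, adjusted p = 0.56, edgeR), 1 in RA (Igfbp7, -0.23, adjusted p = 0.34) and 0 for the interaction, where 6.21%, 10.5% and 6.72% of all genes were below it. The genotypes did not overlap for 1 member in O2 (Igf1r) and 2 in RA (Igf1r, Igfbp7), against 12.2% and 15.2% of all genes. For Igf1 the response in GSDMD-KO minus that in WT was 0.04 on the log2 scale with a 95% interval of -0.57 to 0.64, and for Igf2r it was 0.04 (-0.34 to 0.42). For Igfbp3 it was -0.15 (-0.94 to 0.65). These intervals do not reach a difference as large as the Igf1 or Igf2r response itself, but smaller differences between the genotypes lie within them.

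**Figure D2:**
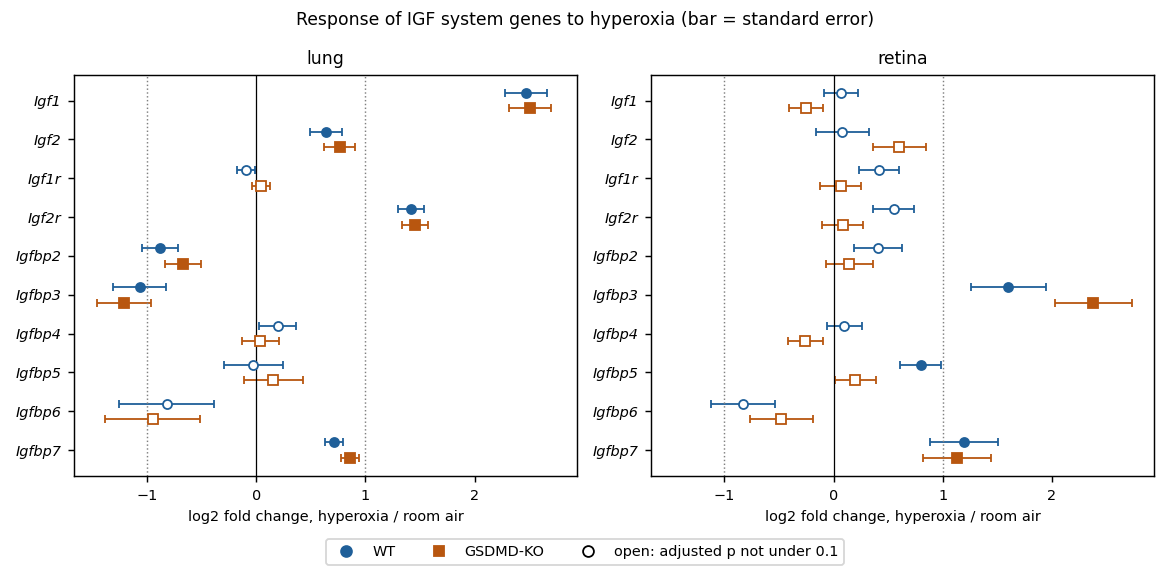
Log2 fold change of each IGF system gene between hyperoxia and room air in the lung (left) and the retina (right), for WT (blue circles) and GSDMD-KO (orange squares), with the standard error as bars and filled symbols where the adjusted p was under 0.1. In the lung Igf1 (2.47 and 2.51) and Igf2r (1.42 and 1.45) lie farthest to the right and Igfbp3 (-1.07 and -1.21) farthest to the left, whereas in the retina Igfbp3 is at 1.60 and 2.38.

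The retina gave another pattern. After hyperoxia and recovery Igfbp3 and Igfbp7 were higher by at least 2-fold in both genotypes, in groups that also differed in sex, as given below. Igfbp5 passed in WT alone, and neither ligand nor either receptor passed. In WT retinas 2 of 10 members were called, both higher, where 2.04% of all tested genes were called (1.77% higher, 0.266% lower), and 3 of 10 passed, all higher, where 5.16% did (3.11% higher, 2.05% lower). The RA and O2 mice did not overlap for 5 members in WT and 4 in GSDMD-KO, against 24% and 26.2% of all genes. In GSDMD-KO retinas 2 of 10 were called and passed, both higher, where 2.19% of all genes were called (1.64% higher, 0.553% lower) and 7.82% passed (4.38% higher, 3.44% lower). The median log2 fold change of the members was 0.41 in WT and 0.11 in GSDMD-KO, against 0.00 over all tested genes in each.

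**Figure D3:**
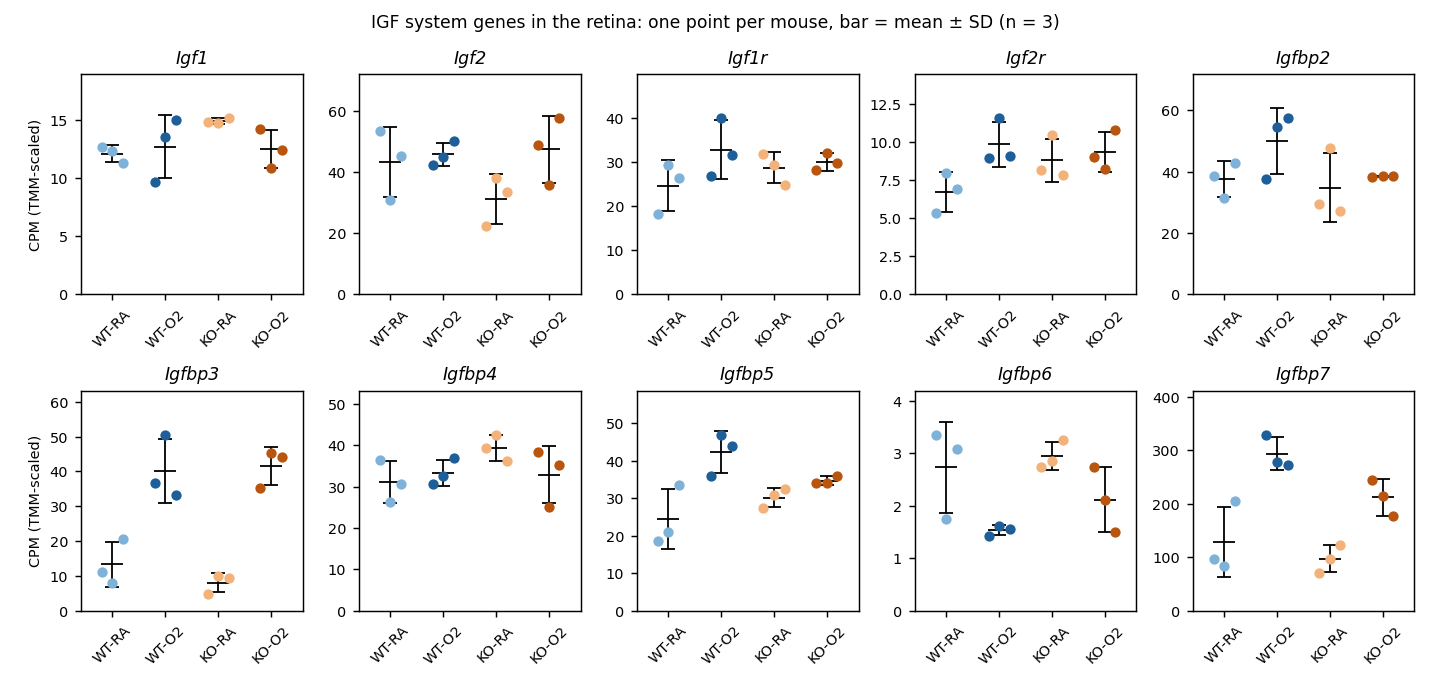
CPM (TMM-scaled) of the 10 IGF system genes in each of the 12 retinas, with the mean and SD of each group of 3 mice. Igfbp3 lies between 33.2 and 50.6 CPM in the 6 O2 retinas and between 4.87 and 20.6 CPM in the 6 RA retinas, while Igf1 lies between 9.66 and 15.2 CPM in all 12.

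Igfbp3 was at 11.2, 8.01 and 20.6 CPM in WT-RA and at 36.7, 50.6 and 33.2 CPM in WT-O2 retinas. It was at 4.87, 9.82 and 9.30 CPM in KO-RA and at 35.2, 45.2 and 44.2 CPM in KO-O2 retinas. The O2 and RA retinas did not overlap in either genotype. The log2 fold change was 1.60 ± 0.341 (3.03-fold, adjusted p = 0.037) in WT and 2.38 ± 0.352 (5.20-fold, adjusted p = 0.0073) in GSDMD-KO. The difference between these responses, 0.78 (95% interval -0.32 to 1.88), did not pass the test (adjusted p = 0.59). Without the 3 lens-rich retinas Igfbp3 was at 1.83 in WT (adjusted p = 0.0741) and 2.50 in GSDMD-KO (adjusted p = 0.0246). With the lens list as a covariate it was at 1.90 in WT, which missed the threshold (adjusted p = 0.106).

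Igfbp7 was at 97.1, 83.4 and 204 CPM in WT-RA and 329, 279 and 273 CPM in WT-O2 retinas. It was at 71.3, 97.2 and 122 CPM in KO-RA and 244, 215 and 176 CPM in KO-O2 retinas. The groups did not overlap, and the highest RA retina, WT-RA mouse 3, was also the one richest in lens transcripts. The log2 fold change was 1.20 ± 0.311 (2.29-fold, adjusted p = 0.075) in WT and 1.13 ± 0.311 (2.19-fold, adjusted p = 0.073) in GSDMD-KO. Without the 3 lens-rich retinas, which left WT-RA mouse 1 alone in its group, it was 1.59 in WT and 1.33 in GSDMD-KO. Igfbp7 missed the threshold in 9 of 21 alternatives in WT (adjusted p up to 0.238). In GSDMD-KO it missed it in 8 of 21 (up to 0.211). The lowest log2 fold changes among the alternatives were 0.96 in WT and 0.95 in GSDMD-KO, less than 2-fold.

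Igfbp5 was at 18.6, 20.9 and 33.5 CPM in WT-RA and 35.9, 46.9 and 44.0 CPM in WT-O2 retinas. It was at 27.3, 30.7 and 32.4 CPM in KO-RA and 34.0, 34.0 and 36.0 CPM in KO-O2 retinas. The WT groups stood apart from each other by more than the KO groups did, with a log2 fold change of 0.80 ± 0.190 (adjusted p = 0.052) in WT and 0.20 ± 0.188 (adjusted p = 0.60) in GSDMD-KO. The difference between the genotypes' responses was -0.60 (95% interval -1.21 to 0.02) and did not pass the test over all genes (adjusted p = 0.46). In WT Igfbp5 missed the threshold in 6 of 21 alternatives (adjusted p up to 0.26), and exceeded 2-fold in others, at 1.10 without WT-RA mouse 3 and 1.18 without the 3 lens-rich retinas.

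These retinal values rested on few mice, and sex went partly with oxygen. Y-linked transcripts were found in all 3 mice of each RA retina group and in 1 of the 3 in each O2 group. With them as a covariate Igfbp3, Igfbp5 and Igfbp7 missed the threshold in WT (edgeR, adjusted p = 0.14, 0.26 and 0.19). In GSDMD-KO retinas Igfbp7 missed it (adjusted p = 0.144) and Igfbp3 passed (adjusted p = 0.031). The count of members called in WT retinas fell from 2 to 0 when WT-RA mouse 1, WT-RA mouse 2 or WT-O2 mouse 2 was left out, and to 0 with Y-linked transcripts as a covariate, rose to 3 without WT-RA mouse 3, and Igfbp7 in GSDMD-KO missed the threshold when any 1 KO-O2 mouse was left out, with an adjusted p of up to 0.211. The log2 fold changes themselves kept their sign under every alternative tried, between 1.34 and 2.06 for Igfbp3 in WT and between 0.95 and 1.69 for Igfbp7 in GSDMD-KO.

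Vascular markers moved with Igfbp3 and Igfbp7 in the retina. The 8 endothelial genes, all detected in every retina, summed to 103 to 121 CPM in WT-RA, 224 to 254 CPM in WT-O2, 117 to 143 CPM in KO-RA and 189 to 208 CPM in KO-O2 mice. The 8 mural cell genes summed to 78.8 to 105, 208 to 293, 108 to 111 and 138 to 221 CPM in the same order, and the 10 macrophage and microglia genes to 42.1 to 63.0, 117 to 170, 44.1 to 55.9 and 104 to 155 CPM. Over the 12 retinas, which share the oxygen groups, Pearson's r of log2 values with the endothelial sum was 0.832 for Igfbp3 and 0.819 for Igfbp7, and 0.244 and 0.0873 once the group means were removed. With the mural sum it was 0.789 for Igfbp3 and 0.872 for Igfbp7, and 0.298 and 0.613 within groups. The part of these cells in the Igfbp3 and Igfbp7 values was not tested.

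In the lung, the macrophage sum moved against Igf1. The 10 macrophage genes, all above 1 CPM in every lung, summed to 2248 to 3201 CPM in WT-RA, 2075 to 2228 CPM in WT-O2, 2434 to 2622 CPM in KO-RA and 1719 to 1925 CPM in KO-O2 mice, and Pearson's r of log2 values with Igf1 over the 12 lungs was -0.858, and -0.862 within groups. The 8 fibroblast genes summed to 5992 to 7632 CPM in WT-RA and 7381 to 8595 CPM in WT-O2 mice, and to 6823 to 8273 CPM in KO-RA and 7340 to 8137 CPM in KO-O2 mice, which overlap (r with Igf1 0.566, and 0.692 within groups). The within-group values rest largely on the WT-RA lungs, where Igf1 spread most and mouse 3 stood apart, as given above. They were not computed without that mouse. By staining, the paper counted more macrophages in the airspaces of WT-O2 lungs than in its other groups. The summed RNA of whole lung is a different measure from that count. The part of either cell type in the Igf1 values was not tested.

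**Figure D4:**
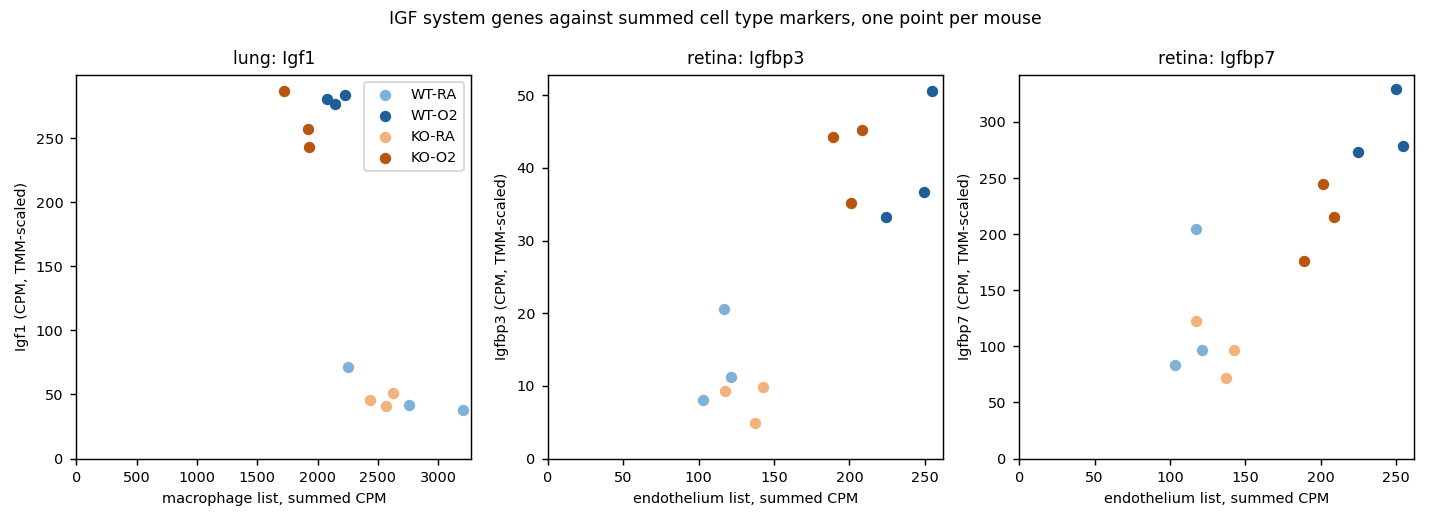
CPM of lung Igf1 against summed macrophage markers, and of retinal Igfbp3 and Igfbp7 against summed endothelial markers, with 1 point per mouse coloured by group. The 6 O2 lungs, with Igf1 at 243 to 287 CPM, have macrophage sums of 1719 to 2228 CPM, and the 6 O2 retinas, with Igfbp3 at 33.2 to 50.6 CPM, have endothelial sums of 189 to 254 CPM.

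The remaining members did not pass in the retina. Igf1 was at 12.7, 12.4 and 11.3 CPM in WT-RA, 9.66, 13.5 and 14.98 CPM in WT-O2, 14.8, 14.8 and 15.2 CPM in KO-RA and 14.2, 10.9 and 12.4 CPM in KO-O2 mice. Its log2 difference was 0.07 (95% interval -0.29 to 0.43, adjusted p = 0.87) in WT and -0.26 (-0.61 to 0.10, adjusted p = 0.39) in GSDMD-KO, intervals that hold no change near that of the lung. With Y-linked transcripts as a covariate the GSDMD-KO value was -0.54 (adjusted p = 0.0749).

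Igf2 was at 53.5, 30.7 and 45.3 CPM in WT-RA, 42.4, 44.8 and 49.9 CPM in WT-O2, 22.1, 38.0 and 33.4 CPM in KO-RA and 48.8, 35.7 and 57.6 CPM in KO-O2 retinas. The groups overlapped, and the log2 difference was 0.08 ± 0.240 in WT (adjusted p = 0.91) and 0.60 ± 0.241 in GSDMD-KO (adjusted p = 0.19). Igf1r ranged from 18.2 to 39.9 CPM over all retinas, with a log2 difference of 0.41 ± 0.185 in WT (adjusted p = 0.28) and 0.06 ± 0.184 in GSDMD-KO (adjusted p = 0.89). Igf2r was at 5.36, 7.97 and 6.90 CPM in WT-RA and 8.97, 11.6 and 9.09 CPM in WT-O2 retinas, which did not overlap, but its log2 difference of 0.55 ± 0.188 missed the threshold (adjusted p = 0.16). In GSDMD-KO retinas it was 0.08 ± 0.187 (adjusted p = 0.85).

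Igfbp2 (27.1 to 57.5 CPM over all retinas) differed by 0.41 ± 0.216 in WT and 0.14 ± 0.216 in GSDMD-KO, and Igfbp4 (25.2 to 42.6 CPM) by 0.10 ± 0.163 and -0.26 ± 0.162. Igfbp6, the lowest member at 1.42 to 3.36 CPM, differed by -0.83 ± 0.294 in WT (adjusted p = 0.17) and -0.48 ± 0.291 in GSDMD-KO (adjusted p = 0.39). None of these 3 genes passed, although the WT-O2 retinas (1.42 to 1.62 CPM) lay below the WT-RA retinas (1.75 to 3.36 CPM) for Igfbp6.

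No member passed between the genotypes in the retina, in O2 (1.27% of all genes passed and 0.292% were called), in RA (0.00522% passed and 0.00522% were called) or for the interaction (0.00522% passed) by edgeR, and DESeq2 called none. Below 0.05 before adjustment lay 0, 0 and 1 members (Igfbp5 in the interaction), where 12.6%, 12.7% and 10.6% of all genes lay below it. For Igfbp7 KO-O2 retinas lay below all WT-O2 retinas, at a log2 difference of -0.47 with a 95% interval of -1.18 to 0.24 (adjusted p = 0.59). Non-overlapping groups were seen for 1 member (Igfbp7) and 19.9% of all genes in O2, and for 1 member (Igf1) and 17.7% of all genes in RA.

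The genes that process and carry IGF were taken from a list of 14, of which 12 passed the low-count filter in lungs and 14 in retinas. In WT lungs 5 passed higher and 1 lower (Ghr, the growth hormone receptor, chosen for mention after its value was seen, at -0.22), and the counts were the same in GSDMD-KO lungs. These 6 of 12 lie at the share of all tested genes that passed (49.2% in WT, 46.7% in GSDMD-KO). The list's median log2 fold change was 0.22 in WT and 0.33 in GSDMD-KO, against -0.01 over all tested genes. Pappa2, a metalloprotease that frees IGF by cutting Igfbp3 and Igfbp5, was the only gene of the list called, at 4.29, 7.57 and 16.0 CPM in WT-RA and 72.8, 60.1 and 78.4 CPM in WT-O2 mice, and at 17.1, 11.5 and 15.02 CPM in KO-RA and 128, 105 and 54.3 CPM in KO-O2 mice. All O2 lungs lay above all RA lungs, at a log2 fold change of 2.92 ± 0.472 (7.59-fold, adjusted p = 0.0011) in WT and 2.72 ± 0.459 (6.57-fold, adjusted p = 0.0016) in GSDMD-KO.

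Igf2bp1, Igf2bp2 and Igf2bp3, RNA-binding proteins of Igf2 and other messages, rose by 0.98, 0.74 and 0.59 on the log2 scale in WT and by 0.94, 0.38 and 0.81 in GSDMD-KO lungs (adjusted p between 0.00016 and 0.083). Igf2bp2 missed the threshold in 10 of 19 alternatives in GSDMD-KO (adjusted p up to 0.241), and in WT with the erythroid covariate (0.34, adjusted p = 0.498). Igfals, the acid-labile subunit of the circulating IGF complex, rose by 0.95 in WT (adjusted p = 0.00067) and 0.76 in GSDMD-KO (adjusted p = 0.0037), at 2.09 to 5.33 CPM over all lungs. In the retina Stc2, the stanniocalcin that inhibits the PAPP-A proteases, rose from 2.48, 1.75 and 2.66 CPM in WT-RA to 8.31, 6.52 and 6.43 CPM in WT-O2 mice and from 2.43, 2.76 and 2.03 CPM in KO-RA to 6.80, 7.96 and 7.87 CPM in KO-O2 mice. Its log2 fold change was 1.62 ± 0.205 (adjusted p = 0.0028) in WT and 1.65 ± 0.204 (adjusted p = 0.0038) in GSDMD-KO, and it passed under every alternative tried. Htra1, a serine protease that cleaves matrix and IGF binding proteins, rose in GSDMD-KO retinas by 0.62 ± 0.152 (adjusted p = 0.046). It missed the threshold there in 6 of 21 alternatives. The adjusted p was 0.107 with the retinal pigment epithelium list as a covariate and 0.181, the highest, with Y-linked transcripts. With 0.08 ± 0.151 Htra1 did not pass in WT. The other 13 genes of the list in WT and 12 in GSDMD-KO retinas did not pass.

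Of 28 genes of signalling below the receptor, 27 were tested in each tissue. In WT lungs 8 passed higher and 5 lower, and in GSDMD-KO lungs 6 and 5. None was called in either genotype, where 11.6% and 10.6% of all tested genes were. These 13 and 11 of 27 genes lie near the share of all tested genes that passed (49.2% and 46.7%). In the retina none passed in either genotype by edgeR, where 5.16% of all tested genes passed in WT and 7.82% in GSDMD-KO. At an unadjusted p under 0.05 there were 3 in each, a share that was not counted over all genes. The transcription factors Foxo1 and Foxo4, which are held in the cytoplasm by AKT, fell in the lung by 0.68 and 0.68 on the log2 scale in WT and by 0.63 and 0.58 in GSDMD-KO (adjusted p of 0.00014 or less). Pik3ca, the catalytic PI3K subunit, fell by 0.50 and 0.43, while the regulatory subunit Pik3r1 fell by 0.58 in GSDMD-KO (adjusted p = 0.0015) and with -0.23 did not pass in WT (adjusted p = 0.14). Inppl1, a lipid phosphatase that opposes PI3K, rose by 0.36 and 0.31.

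Of 12 imprinted growth genes that are often studied with Igf2, 9 were tested in each tissue. In WT lungs 1 passed higher and 4 lower, and in GSDMD-KO lungs 1 and 5, where 24.7% and 23.4% of all tested genes passed lower and 49.2% and 46.7% in either direction. Cdkn1c, a cell cycle inhibitor, was at 93.1 to 109 CPM in WT-RA, 30.5 to 31.7 CPM in WT-O2, 89.6 to 112 CPM in KO-RA and 32.8 to 34.7 CPM in KO-O2 lungs, and fell by 1.70 ± 0.0924 (adjusted p = 8.8e-09) in WT and 1.61 ± 0.0920 (adjusted p = 1.8e-08) in GSDMD-KO. Mest fell by 1.21 ± 0.148 in WT and 1.37 ± 0.149 in GSDMD-KO lungs. Dlk1, a Notch-related ligand of immature cells, fell by 0.91 ± 0.380 in WT (adjusted p = 0.071) and 1.17 ± 0.377 in GSDMD-KO lungs (adjusted p = 0.025), at 1.36 to 6.25 CPM. Sgce, the epsilon-sarcoglycan gene, fell by 0.36 and 0.23, and Ndn, encoding necdin, rose by 0.54 in WT (adjusted p = 0.0012) and with 0.18 did not pass in GSDMD-KO (adjusted p = 0.22).

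In the retina Dlk1 rose by 2.76 ± 0.631 (adjusted p = 0.044) in WT and 2.12 ± 0.632 (adjusted p = 0.088) in GSDMD-KO, from 0.101 to 0.471 CPM in the RA to 0.509 to 2.39 CPM in the O2 retinas. At these low levels Dlk1 missed the threshold in 4 of 21 alternatives in WT (adjusted p up to 0.159) and in 13 of 21 in GSDMD-KO (up to 0.264), leaving out any 1 O2 or KO-RA mouse included in the latter. Mest rose in WT retinas, from 94.2, 90.8 and 103 CPM to 124, 149 and 140 CPM (log2 fold change 0.52 ± 0.104, adjusted p = 0.027), and was at 96.7, 98.4 and 104 CPM in KO-RA and 83.3, 102 and 82.5 CPM in KO-O2 mice (-0.16 ± 0.104, adjusted p = 0.42). Mest was the only gene of the 4 lists that passed between the genotypes, lower in KO-O2 than in WT-O2 retinas at -0.63 ± 0.104 (adjusted p = 0.039). In that contrast 1.27% of all tested genes passed. Mest missed the threshold there in 5 of 21 alternatives (adjusted p up to 0.159). Its rise in WT retinas also missed it in 5 of 21 (up to 0.137). The difference of the 2 oxygen responses, -0.68 ± 0.147, did not pass (adjusted p = 0.19).

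**Figure D5:**
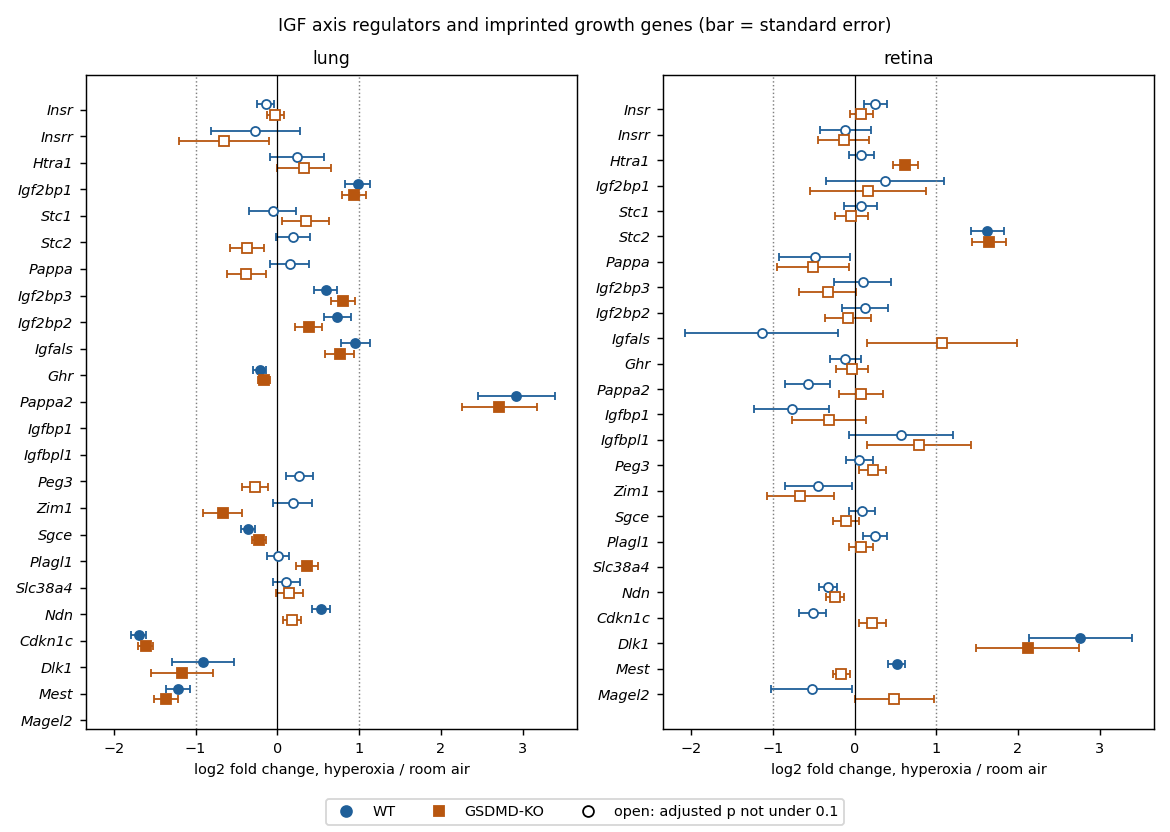
Log2 fold change between hyperoxia and room air, with standard errors, for the tested genes that process or carry IGF (upper rows) and for the imprinted growth genes (lower rows), in lung and retina. Pappa2 (2.92 and 2.72) and Cdkn1c (-1.70 and -1.61) lie farthest out in the lung, and Dlk1 (2.76 and 2.12) and Stc2 (1.62 and 1.65) in the retina.

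Genes whose levels ran most like those of the ligands and Igfbp3 were read as Pearson's correlation of log2 CPM over the 12 libraries of a tissue, among tested genes averaging 5 CPM or more (12169 in the lung, 11938 in the retina). All libraries of a tissue share the oxygen split, so these values describe likeness only. In the lung Igf1 ran with Ak1 (r = 0.995), Celf5 (0.993) and Ccnd2 (0.993), Igf2 with Ganab (0.960), Hs2st1 (0.958) and Tspan5 (0.958), and Igfbp3 with Slc43a3 (0.970), Gprc6a (0.965) and Epn2 (0.963). In the retina Igfbp3 ran with Egfl7 (0.966), which is also in the endothelial list, H2-Q7 (0.965) and Ndufa4l2 (0.960). Igf2 ran with Pdyn (0.903), Sec61g (0.891) and Snx6 (0.874), and Igf1 with Arf2 (0.846), Gmfb (0.842) and Slc16a7 (0.837), the weakest of these likenesses.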

How the data were processed

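Total RNA of whole lung (12 libraries) and whole retina (12 libraries) was sequenced, and the authors deposited 1 table per tissue of estimated counts (expected counts, not normalised) per Ensembl gene, made with kallisto and summarised to genes with tximport. Per the labels, FastQC was also used and the build was mm10, whereas the paper's supplement names a GRCm39 build. Which of them made the counts is not settled by these sources. Exon lengths and promoter windows used here are from GRCm38. The counts were rounded to whole numbers. Fractional entries made up 74.1% of the lung's nonzero values and 99.9% of the retina's (tolerance 1e-06). The tximport setting is not given in the sources used here. If abundances were scaled to make the retinal values, their levels per kilobase would carry that scaling. Library totals were 28763661 to 29604254 (lung) and 24863257 to 29093035 (retina). Each tissue was fitted separately with edgeR 4.0.16 (R 4.3.3, limma 3.58.1), using TMM scaling, filterByExpr, a term per group over all 12 libraries and the robust quasi-likelihood test, with Benjamini-Hochberg adjustment over all tested genes. Standard errors were derived from F and the log2 fold change, and 95% intervals used 8 residual degrees of freedom. The quasi-likelihood test adds prior degrees of freedom to these. An interval can therefore include no difference where the unadjusted p is under 0.05. CPM is TMM-scaled, except for Gsdmd and marker sums, which use library totals. Levels per kilobase used the union of GENCODE exons. DESeq2 1.42.0, other thresholds, filters, covariates and each library left out were alternatives, of which the lens and erythroid covariates and the set without the 3 lens-rich retinas were chosen after seeing the data. The fits were tested on simulated data. All 10 members were described. From each further list, genes were named by a rule that took at most 5 of those past the adjusted threshold, in order of their p-values. The members, lists and rules were chosen with earlier results of these data known.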

Additional observations from a re-analysis of the deposited data

Results flagged for a closer look

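For some genes the values lay in opposite directions in the 2 tissues, with every O2 sample on one side of the RA samples in the lung and on the other side in the retina. The tables were made separately and the exposures differed in dose and timing, so the difference between tissues was not tested. The values are the log2 fold change in the retina minus that in the lung. In WT mice it was 2.67 for Igfbp3, 3.68 for Dlk1, 1.73 for Mest and -0.87 for Ndn, whose retinal value did not pass the test (-0.33, adjusted p = 0.15, edgeR). In GSDMD-KO mice it was 3.59 for Igfbp3, 3.29 for Dlk1 and -2.76 for Igf1, where the retinal change itself did not pass the test (-0.26, adjusted p = 0.39, edgeR).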

How the results depend on the processing

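Of 800 alternative values for the 40 member results, 736 kept their direction and side of the adjusted p threshold, 30 rose above it, 7 fell below it and 27 changed sign, all 27 for results that did not pass. Of the full calls of members, 2-fold change included, 25 were lost and 7 gained over these alternatives. Igfbp3 in WT lungs lost its call without WT-RA mouse 1, without WT-O2 mouse 3 and with the erythroid covariate. In lungs of either genotype the count of members called rose from 3 to 6 at a fold of at least 1.5 and to 6 with no fold threshold. In WT retinas it fell from 2 to 1 with only the 2 groups compared and to 0 with Y-linked transcripts as a covariate, and was 0 to 3 with 1 library left out (3 without WT-RA mouse 3, 0 without WT-RA mouse 1, WT-RA mouse 2 or WT-O2 mouse 2, and 1 without WT-O2 mouse 1, WT-O2 mouse 3, KO-RA mouse 2 or KO-O2 mouse 2). In GSDMD-KO retinas it was 1 with that covariate and 1 to 2 with 1 library left out (1 without WT-O2 mouse 2 or 3, KO-RA mouse 1 or 2, or any KO-O2 mouse). Of 1381 alternatives for 69 results of the other named genes, 1270 kept their direction and side of the threshold and 33 changed sign, 32 of these for results that did not pass. Mest between the genotypes in O2 retinas missed the threshold in 5 of 21, and Dlk1 in WT lungs reversed to 0.11 with the erythroid covariate. The sign changes, as log2 differences of O2 from RA, were as follows, and the cause was not tested. With 1 library left out, values in WT lungs ranged from -0.36 to 0.14 for Igfbp5, -0.016 to 0.82 for Htra1 and -0.018 to 0.34 for Stc2. With 1 library left out, values in GSDMD-KO lungs ranged from -0.0042 to 0.13 for Igf1r, -0.022 to 0.072 for Igfbp4 and -0.13 to 0.31 for Igfbp5. With 1 library left out, values in WT retinas ranged from -0.11 to 0.27 for Igf2, -0.0067 to 0.23 for Igfbp4, -0.050 to 0.23 for Igf1, -0.081 to 1.14 for Igf2bp1, -0.15 to 0.37 for Igf2bp3, -0.10 to 0.35 for Igf2bp2, -0.036 to 0.062 for Foxo1, -0.029 to 0.24 for Htra1, -0.17 to 0.095 for Foxo4 and -0.056 to 0.28 for Sgce. With 1 library left out, values in GSDMD-KO retinas ranged from -0.028 to 0.15 for Igf1r, -0.0068 to 0.44 for Igfbp2, -0.032 to 0.23 for Igf2r, -0.24 to 0.43 for Igf2bp1, -0.00041 to 0.17 for Pappa2 and -0.21 to 0.089 for Igf2bp2. With the hepatocyte list as a covariate values were 0.024 for Igfbp5 in WT lungs. With the erythroid list values were 0.57 for Igfbp5 and -0.29 for Stc2 in WT lungs. With Y-linked transcripts values were -0.23 for Igf1, -0.16 for Igf2, -0.14 for Igfbp4, -0.083 for Igf2bp2, -0.034 for Htra1, 0.028 for Foxo4, -0.021 for Pik3r1 and -0.057 for Sgce in WT retinas, and -0.016 for Igf1r, -0.079 for Igf2r, -0.035 for Igfbp2 and -0.094 for Igf2bp1 in GSDMD-KO retinas. With the retinal pigment epithelium list values were -0.14 for Foxo1 in WT retinas, and 0.22 for Igf2bp3 and 0.23 for Igf2bp2 in GSDMD-KO retinas. With the lens list values were -0.065 for Igfbp4 and -0.093 for Sgce in WT retinas, and 0.071 for Igf2bp2 in GSDMD-KO retinas. Without the 3 lens-rich retinas values were -0.0032 for Igf1, -0.23 for Igf2, -0.13 for Igfbp4, 0.051 for Pappa2, 0.0066 for Foxo4 and -0.24 for Sgce in WT retinas, and -0.025 for Igf1r, -0.0039 for Igfbp2 and 0.053 for Igf2bp2 in GSDMD-KO retinas. No paired analysis was possible because the labels give mouse identifiers and no replicate numbers shared between groups. With 3 mice a group, small differences were not detectable.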

Other observations

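Foxo3, a transcription factor held in check by AKT, was singled out after its values were seen. In the lung it was higher under hyperoxia in WT, at a log2 fold change of 0.53 ± 0.167 (edgeR, adjusted p = 0.022), and lower in GSDMD-KO, at -0.57 ± 0.166 (adjusted p = 0.016). The interaction was -1.10 ± 0.236 and did not pass over all genes (adjusted p = 0.28). In the retina Foxo3 was at 0.04 in WT and 0.01 in GSDMD-KO.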
